A study of Mus musculus with 36 samples.

Results

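The IL-10 receptor pathway was described through 9 genes, taken by gene name from the 24781 genes of the deposited count table: the ligand *Il10*, the receptor chains *Il10ra* and *Il10rb*, the kinases *Jak1* and *Tyk2*, the transcription factor *Stat3* and the target genes *Socs3*, *Bcl3* and *Sbno2*. The rule used gene names only and no measured value, but earlier results of these data were known when the members were chosen. Tumour-associated macrophages (TAMs; CD45+CD11b+F4/80 high) and CD8+ T cells (CD45+TCRβ+CD8+) were sorted on day 7 from MC38 colon adenocarcinomas grown in the skin of wild-type (WT) mice, *muMt*-/- mice and *muMt*-/- mice that carried a GABA pellet. *muMt*-/- mice (C57BL/6J) lack mature B cells in all tissues from birth, and GABA (γ-aminobutyric acid) is an inhibitory neurotransmitter. Each of the 36 libraries held 100 cells of 1 mouse, with 6 libraries for each cell type and group. Every group bore MC38 tumours, and pellets were placed under the skin 1 day before the tumour cells. The methods of the study describe placebo pellets for control mice, whereas the labels of the WT and *muMt*-/- libraries give no treatment. Sex, age and cage were not given for each mouse, so their part in any difference was not tested. The study lists its WT mice as C57BL/6J or C57BL/6N, and the part of substrain was not tested.

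Counts were numbers of RNA molecules, told apart by molecular barcodes. In WT mice the TAM libraries ran from 206394 to 304100 molecules (median 242756). Those of *muMt*-/- mice ran from 100254 to 253608 (median 149960) and, with GABA, from 151856 to 262606 (median 192775). CD8+ libraries were smaller, from 22896 to 76898 molecules for WT (median 42066), 51064 to 77839 in *muMt*-/- mice (median 67122) and 65356 to 98015 with GABA (median 80283). Depth thus differed between groups, with WT the deepest in TAMs and the shallowest in CD8+ T cells. A member was tested where its normalized number of molecules (DESeq2 size factors) averaged above 1 over the 18 libraries of a cell type. In each cell type 8 of the 9 members passed, and only *Il10* did not.

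The sorted cells carried the RNA of their labelled types. Macrophage markers, 15 genes such as *Csf1r*, *Adgre1* and *C1qa*, summed to 17302 to 22302 CPM (molecules per 1000000 molecules of a library) in WT TAMs, and 10 T cell markers such as *Cd3e* and *Cd8a* to 3355 to 6806 in WT CD8+ T cells. T cell markers in TAM libraries did not exceed 51.4 CPM. CD8+ libraries were less pure: the macrophage marker sum was 186 to 2377 CPM in WT mice (median 462), 1136 to 7258 in *muMt*-/- mice (median 1682) and 377 to 3980 with GABA (median 2425). The most abundant marker was *Ctss* in all 3 groups, and *Adgre1* and *Mrc1* were at 0 in all WT CD8+ libraries. All 13 macrophage markers tested in CD8+ cells had log2 fold changes above 0 without B cells (median 2.23) and with GABA against WT (median 1.91). None passed the edgeR test, while exact permutation tests gave p < 0.05 for 7 of 13 and 4 of 13, all higher, beside 7.05% and 6.66% of all genes in either direction. B cell markers were scarce: 10 genes summed to at most 39.9 CPM in a TAM library and 43.5 in a CD8+ library. *Cd79a*, *Pax5* and *Blk* were at 0 in every library, and *Cd79b* gave 19 molecules in TAMs and 5 in CD8+ T cells. Every *muMt*-/- TAM library held some marker molecules, with sums of 4.78 to 39.9 CPM.

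IL-10 is an anti-inflammatory cytokine made by macrophages, T cells and B cells. It binds a receptor of the ligand-binding chain IL-10RA and the shared chain IL-10RB, which engage the kinases JAK1 and TYK2, and these phosphorylate the transcription factor STAT3. In macrophages, STAT3 then raises genes such as *Socs3*, *Bcl3* and *Sbno2* and limits the production of inflammatory cytokines and chemokines.

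The ligand was scarce in the RNA of both sorted populations. *Il10* was counted 6 times among the 3663618 molecules of the 18 TAM libraries, with 2 molecules in WT, 1 in *muMt*-/- and 3 in GABA-treated mice, and 13 libraries held none. This was 1.36 CPM in WT TAMs (95% Poisson interval 0.165 to 4.92, without the spread between libraries), 1.01 in *muMt*-/- TAMs (0.0256 to 5.64) and 2.48 with GABA (0.512 to 7.26). CD8+ T cells gave 14 molecules among 1154683, 1 in WT, 8 in *muMt*-/- and 5 in GABA-treated mice. The 8 molecules came from 2 libraries, 6 of them from *muMt*-/- replicate 6 (92.3 CPM). Summed CD4 and regulatory T cell markers (5 genes, *Il2ra* the highest) were 862 CPM in that library and 722 in the other, replicate 5. Replicate 4, with 803 CPM, held no *Il10*. The sums ran from 329 to 633 CPM in WT and from 368 to 595 with GABA. The part of such cells in the *Il10* counts was not tested. Over the libraries of a group, the level was 3.80 CPM in WT CD8+ T cells (0.0963 to 21.2), 19.8 in *muMt*-/- cells (8.56 to 39.1) and 10.2 with GABA (3.33 to 23.9). The intervals of the 3 groups overlapped in both cell types, and no exact permutation test of *Il10* gave p below 0.106. A library with no molecule could have missed levels of up to 9.87 to 29.9 CPM in TAMs and 31.5 to 131 in CD8+ T cells (an expected count of 3), so a count of 0 does not show absence. The mean normalized number of *Il10* was not above 1 in either cell type, so it was left out of the fits.

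Without B cells, normalized numbers of *Socs3*, *Il10ra* and *Sbno2* in TAMs were higher in most libraries, but none of the 8 tested members passed the test over all genes. Counts before normalization were not higher. Mean molecules per library in WT and *muMt*-/- TAMs were 55.8 and 52.2 for *Socs3*, 27.3 and 25.8 for *Il10ra*, and 22 and 21.3 for *Sbno2*. The higher values are thus larger shares of smaller libraries. Mean normalized numbers in *muMt*-/- TAMs were 1.47 times those of WT TAMs for *Socs3*, 1.59 times for *Il10ra* and 1.49 times for *Sbno2*. The edgeR test called 0 of 8 members, against 194 of 9469 genes, or 2.05%, with 97 higher and 97 lower. At unadjusted p < 0.05 edgeR held 1408 genes, and DESeq2 called 253. Log2 fold changes were above 0 for 7 of 8 members, with a median of 0.28 beside −0.05 for all genes tested. In a bulk sample, fewer cells of one kind and less RNA per cell cannot be told apart.

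Both receptor chains were measured well in TAMs. *Il10ra*, which encodes the chain that binds the cytokine, was at 14.5 to 25.8 normalized molecules in WT TAMs (median 21.7) and at 19.4 to 50.2 in *muMt*-/- TAMs (median 29.1). The 2 groups overlapped, although 4 of the 6 *muMt*-/- libraries lay above every WT library. Its log2 fold change was 0.58 with a standard error of 0.21 (edgeR adjusted p = 0.158; exact permutation p = 0.0368). *Il10rb*, the chain shared with receptors for IL-22 and type III interferon, ranged from 9.23 to 15.3 in WT (median 13.4) and from 7.37 to 20.7 in *muMt*-/- TAMs (median 17.8). The *muMt*-/- libraries of *Il10rb* spread to both sides of the WT range, and its log2 fold change was 0.25 with a standard error of 0.24 (edgeR adjusted p = 0.705).

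The kinases and the transcription factor differed less. *Jak1*, which pairs with many cytokine receptors, gave 25.4 to 40.2 in WT (median 31.3) and 31.1 to 39.6 in *muMt*-/- TAMs (median 38.6). All *muMt*-/- values of *Jak1* lay within the WT range. *Tyk2*, the kinase that docks on IL-10RB, was at 5.52 to 15.7 in WT (median 6.74) and 7.83 to 12.6 in *muMt*-/- TAMs (median 9.69), again inside the WT range. Log2 fold changes were 0.16 for *Jak1* and for *Tyk2*, with standard errors of 0.18 and 0.30 (edgeR adjusted p = 0.741 and adjusted p = 0.873). *Stat3* stood at 35.8 to 57.4 in WT (median 41.1) and 42.0 to 72.5 in *muMt*-/- TAMs (median 53.0). All 6 *muMt*-/- libraries were above the WT median, yet only 2 were above the whole WT group. For *Stat3* the log2 fold change was 0.30 with a standard error of 0.17 (edgeR adjusted p = 0.422; exact permutation p = 0.0519).

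Among the targets, *Socs3* showed the clearest separation. *Socs3* encodes an inhibitor that STAT3 itself induces and that blocks JAK activity at some cytokine receptors. Its normalized numbers were 31.2 to 46.6 in WT TAMs (median 44.3) and 46.0 to 82.9 in *muMt*-/- TAMs (median 60.9). Of the *muMt*-/- libraries, 5 of 6 lay above all WT libraries and the last lay just inside the WT range. The log2 fold change was 0.52 with a standard error of 0.17 (edgeR adjusted p = 0.0883; exact permutation p = 0.00649). *Socs3* passed with DESeq2 (adjusted p = 0.0292), with the filterByExpr filter of edgeR (adjusted p = 0.0289) and with genes averaging above 5 only (adjusted p = 0.0422). With depth as a covariate its log2 fold change was 0.50 (edgeR adjusted p = 0.439).

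*Sbno2*, a co-regulator induced through STAT3, ranged from 12.8 to 25.8 in WT TAMs (median 15.6) and from 17.0 to 32.6 in *muMt*-/- TAMs (median 25.05). Without WT replicate 2, which held the 25.8, the WT libraries stopped at 17.4. All 6 *muMt*-/- libraries were above the WT median and 3 above every WT library. The log2 fold change of *Sbno2* was 0.56 with a standard error of 0.21 (edgeR adjusted p = 0.172; exact permutation p = 0.0216). *Bcl3*, a nuclear IκB protein, was scarce at 3.77 to 12.9 in WT (median 6.46) and 3.77 to 8.37 in *muMt*-/- TAMs (median 5.25). Its *muMt*-/- values lay inside the WT range, with a log2 fold change of −0.23 and a standard error of 0.35 (edgeR adjusted p = 0.841).

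Taken gene by gene, exact permutation tests of 6 against 6 libraries gave p < 0.05, not adjusted, for *Il10ra*, *Socs3* and *Sbno2*, all 3 higher in *muMt*-/- TAMs. On CPM the exact p of *Il10ra* was 0.0519. Among all genes, 16.1% reached this level and 6.92% did so on the higher side. Adjusted over all genes, the exact tests gave adjusted p = 0.280, 0.130 and 0.226 in the same order. Depth moved with the groups, and with depth as a covariate the log2 fold changes of *Il10ra* and *Sbno2* were 0.30 and 0.37 (edgeR adjusted p = 0.804 and adjusted p = 0.722). With this covariate 11 genes passed in place of 194. Over the 18 TAM libraries, Pearson correlations with log2 total molecules were −0.65 for *Il10ra*, −0.53 for *Socs3* and −0.52 for *Sbno2*. Without the 2 farthest libraries these were −0.51, −0.21 and −0.62. Depth and genotype cannot be fully told apart here. Left-out libraries also mattered: 86 genes passed without WT replicate 1, 119 without WT replicate 6 and 69 without *muMt*-/- replicate 4. WT replicate 6 stood apart, with a summed level of 10 tumour and stroma markers of 5290 CPM against 98.7 to 711 in the other WT TAM libraries. Without it the log2 fold change of *Socs3* was 0.44 (edgeR adjusted p = 0.199).

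**Figure D1:**
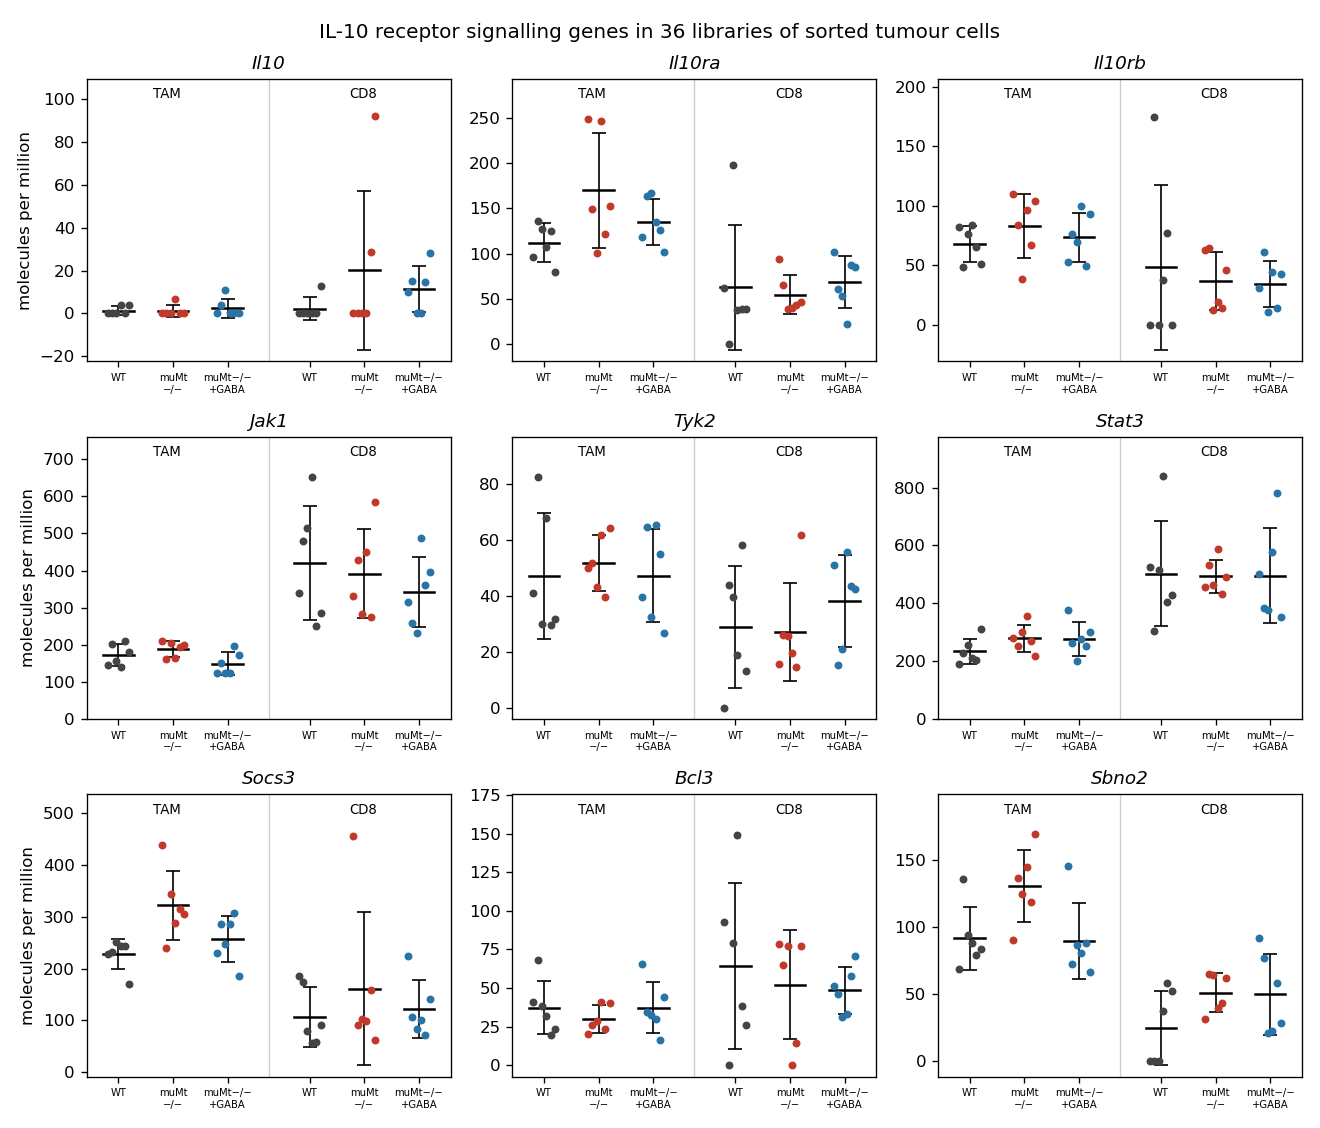
CPM (molecules per 1000000 molecules of a library) of the 9 pathway genes in each of the 36 libraries. Dots are single libraries (6 per group), the long bar is the mean and the error bars are 1 SD; TAMs stand on the left and CD8+ T cells on the right of each panel. Groups are WT (grey), *muMt*-/- (red) and *muMt*-/- with a GABA pellet (blue). The vertical scale differs between genes, and levels of different genes are not comparable.

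Genes that IL-10 is known to induce or repress in macrophages were then counted in the same TAM comparison. Of 15 IL-10-induced genes, 14 were tested (*Cd163* was too low), and 3 rose without B cells while 0 fell, in a comparison where 194 of 9469 genes passed, or 2.05%, 97 of them higher. *Gadd45b*, a stress-response gene, went from 6.52 ± 1.98 (mean ± SD) to 15.1 ± 6.90 normalized molecules, a log2 fold change of 1.14 with a standard error of 0.30 (edgeR adjusted p = 0.0317). *Il4ra*, the IL-4 receptor chain, went from 46.2 ± 10.7 to 73.2 ± 11.8 (log2 fold change 0.63, standard error 0.17, edgeR adjusted p = 0.0343). *Dusp1*, a phosphatase that switches off p38 and JNK, went from 165 ± 22.4 to 251 ± 53.7 (log2 fold change 0.57, standard error 0.15, edgeR adjusted p = 0.0317). Log2 fold changes were above 0 for 12 of the 14, with a median of 0.41 beside −0.05 for all genes.

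Genes known to be repressed by IL-10 were counted alike. Of 20 such genes 16 were tested, since *Il6*, *Il12a*, *Il12b* and *Il23a* were too low, and 2 rose while 0 fell, beside the same 2.05% of all genes. *Ptgs2*, which encodes the prostaglandin-forming enzyme COX-2, went from 51.2 ± 17.0 to 98.5 ± 27.3 (log2 fold change 0.90, standard error 0.22, edgeR adjusted p = 0.0218). *Cxcl2*, a neutrophil-attracting chemokine, went from 92.8 ± 27.6 to 174 ± 39.5 (log2 fold change 0.87, standard error 0.20, edgeR adjusted p = 0.0123). The median log2 fold change of the 16 was 0.27, with 12 above 0 and 4 below. Neither list is specific to IL-10, since other stimuli of macrophages act on the same genes.

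Other genes around the pathway gave single calls, in the same comparison where 194 of 9469 genes passed, or 2.05%. Of 15 inhibitors of JAK and STAT proteins, only *Ptpn2*, a phosphatase that acts on JAK1 and STAT3, rose, from 8.26 ± 1.86 to 19.7 ± 12.2 (log2 fold change 1.22, standard error 0.30, edgeR adjusted p = 0.0227). Of 7 tested regulators of *Il10* transcription, *Bhlhe40*, a repressor of *Il10*, rose from 7.03 ± 0.971 to 16.7 ± 3.96 (log2 fold change 1.19, standard error 0.25, edgeR adjusted p = 0.00597). None of 8 JAK and STAT relatives passed, the smallest p values belonging to *Jak2* (log2 fold change 0.75, edgeR adjusted p = 0.0855) and *Stat4* (2.21, adjusted p = 0.207). *Jak2* passed in 4 of 21 alternative settings, with filterByExpr (adjusted p = 0.0430), with no filter (adjusted p = 0.0392), with only the compared groups (adjusted p = 0.0447) and without *muMt*-/- replicate 5 (adjusted p = 0.0442). None of 7 tested other receptors that signal through STAT3 passed, led by *Il6ra* (0.70, edgeR adjusted p = 0.126) and *Csf3r* (0.92, adjusted p = 0.220). Their median was 0.70 and that of the relatives 0.23. None of 11 other IL-10 family ligands and receptors was high enough to be tested.

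The support for these calls differed by gene. *Bhlhe40* passed in all 21 alternative settings, including depth as a covariate (edgeR adjusted p = 0.0491). *Cxcl2* passed in 19 of 21, *Ptpn2* in 18, *Ptgs2* in 16, *Gadd45b* in 15, *Dusp1* in 13 and *Il4ra* in 12. With depth as a covariate none of these 6 passed. Their log2 fold changes were then 0.64 for *Cxcl2* (edgeR adjusted p = 0.394), 0.95 for *Ptpn2* (adjusted p = 0.397), 0.78 for *Ptgs2* (adjusted p = 0.327), 0.66 for *Gadd45b* (adjusted p = 0.60), 0.51 for *Dusp1* (adjusted p = 0.371) and 0.43 for *Il4ra* (adjusted p = 0.511), all still above 0. Each of the 6 calls was also lost without *muMt*-/- replicate 4 except that of *Cxcl2*. Log2 fold changes were then 0.89 for *Ptpn2* (edgeR adjusted p = 0.149) and 0.76 for *Ptgs2* (adjusted p = 0.0906). *Gadd45b* was at 0.92 (edgeR adjusted p = 0.157), *Dusp1* at 0.48 (adjusted p = 0.121) and *Il4ra* at 0.66 (adjusted p = 0.0536). Without WT replicate 1 all 6 calls were lost. *Cxcl2* was then at 0.76 (edgeR adjusted p = 0.0531), *Ptpn2* at 1.16 and *Gadd45b* at 1.15 (both adjusted p = 0.0594). *Ptgs2* was at 0.77 (edgeR adjusted p = 0.0716), *Il4ra* at 0.61 (adjusted p = 0.0775) and *Dusp1* at 0.50 (adjusted p = 0.101). Macrophage markers moved in the same comparison: *Itgam* rose (log2 fold change 0.66, edgeR adjusted p = 0.0277), and *Lyz2* (−0.74, adjusted p = 0.0240), *C1qb* (−0.62, adjusted p = 0.0414) and *C1qc* (−0.57, adjusted p = 0.0483) fell. *Lyz2* was kept in 16 of 21 settings, *Itgam* in 14 and the last 2 in 8 each. With the replicate block *C1qb* was at −0.60 (edgeR adjusted p = 0.0520) and *C1qc* at −0.56 (adjusted p = 0.0509), so neither passed. With depth as a covariate none of the 4 passed. *Lyz2* was then at −0.65 (edgeR adjusted p = 0.335) and *Itgam* at 0.46 (adjusted p = 0.476). *C1qb* was at −0.47 (edgeR adjusted p = 0.517) and *C1qc* at −0.36 (adjusted p = 0.610). Markers of other cells also differed, without a call. Summed dendritic cell markers averaged 7.16 CPM in WT and 32.4 in *muMt*-/- TAMs, where *Ccr7* was the highest of them at 14.3 CPM. Only 2 of these 7 markers were high enough to be tested. A gene near 0 in WT could enter the test only through the other groups, so no fold change is given. Neutrophil markers, *Csf3r* among them, averaged 71.0 ± 63.5 and 109 ± 42.5 CPM. Of the 5 tested, 3 had log2 fold changes above 0 and 2 below. The highest neutrophil sum of a TAM library, 194 CPM, was in WT replicate 5. The part of these markers in the other calls was not tested.

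In GABA-treated *muMt*-/- mice, TAM levels of most members lay below those of *muMt*-/- mice without GABA, and again none passed. The edgeR test called 0 of 8 members and 2 of 9469 genes, or 0.0211% (801 at unadjusted p < 0.05; DESeq2 called 60). Log2 fold changes were below 0 for 7 of 8 members, with a median of −0.19 beside 0.06 for all genes. This comparison shares the *muMt*-/- libraries with the one above, so high values there push the 2 differences in opposite directions. Side by side, without B cells and then with GABA, the log2 fold changes were 0.58 and −0.28 for *Il10ra*, 0.25 and −0.10 for *Il10rb*, 0.16 and −0.36 for *Jak1*, 0.16 and −0.09 for *Tyk2*, 0.30 and −0.04 for *Stat3*, 0.52 and −0.33 for *Socs3*, −0.23 and 0.28 for *Bcl3*, and 0.56 and −0.60 for *Sbno2*.

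Of the targets, *Sbno2* was furthest below the group without GABA. With GABA it stood at 12.5 to 29.2 normalized molecules (median 15.4), against 17.0 to 32.6 without (median 25.05). All GABA-treated libraries but replicate 1 lay below every *muMt*-/- library, and replicate 1, at 29.2, was among the highest of both groups. The log2 fold change was −0.60 with a standard error of 0.22 (edgeR adjusted p = 0.372; exact permutation p = 0.0303), and −0.77 without replicate 1 (edgeR adjusted p = 0.0831). That library also had the lowest macrophage marker sum of the TAMs, 10003 CPM. *Socs3* was at 34.9 to 56.4 with GABA (median 49.5), and no GABA-treated library reached the *muMt*-/- median of 60.9. Its log2 fold change was −0.33 with a standard error of 0.17 (edgeR adjusted p = 0.606; exact permutation p = 0.0303, and 0.0649 on CPM). *Bcl3* ranged from 3.02 to 13.3 (median 6.29), around the values without GABA.

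Upstream of these, *Jak1* stood at 22.9 to 36.2 with GABA (median 27.0). Of the 6 GABA-treated libraries, 4 were below all *muMt*-/- libraries and none above their median. The log2 fold change of *Jak1* was −0.36 with a standard error of 0.18 (edgeR adjusted p = 0.614; exact permutation p = 0.0130). *Il10ra* ranged from 19.1 to 31.5 with GABA (median 24.3), inside the *muMt*-/- range but for 1 library, at a log2 fold change of −0.28 and a standard error of 0.21 (edgeR adjusted p = 0.764). *Il10rb* was at 9.06 to 18.3 (median 13.8), *Tyk2* at 4.99 to 12.3 (median 9.02) and *Stat3* at 37.6 to 75.7 (median 50.1), and each overlapped the group without GABA. Exact permutation tests gave p < 0.05 for *Jak1*, *Socs3* and *Sbno2*, all 3 lower, where 8.42% of all genes reached this level and 3.53% did so on the lower side. Adjusted over all genes these were adjusted p = 0.439 for *Jak1* and adjusted p = 0.533 for the others. The count over all genes was 35 without GABA replicate 1, 12 without *muMt*-/- replicate 5, and 5 without *muMt*-/- replicate 2 or without GABA replicate 2.

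None of the genes in the surrounding lists passed the edgeR test with GABA. Of the IL-10-induced genes 13 of 14 had log2 fold changes below 0 (median −0.32), led by *Gadd45b* (−0.96, edgeR adjusted p = 0.282) and *Il4ra* (−0.45, adjusted p = 0.372). Of the repressed genes 14 of 16 were below 0 (median −0.23), with *Cxcl2* at −0.84 (edgeR adjusted p = 0.117) and *Il1b*, an inflammatory cytokine, at −0.62 (adjusted p = 0.278). All 7 regulators of *Il10* were below 0 (median −0.50), among them *Bhlhe40* at −0.91 (edgeR adjusted p = 0.196) and *Maf*, an activator of *Il10*, at −0.52 (adjusted p = 0.278). The medians were −0.36 for the JAK and STAT relatives, led by *Stat6* (−0.46, edgeR adjusted p = 0.560), −0.32 for the other STAT3-coupled receptors, led by *Csf3r* (−1.07, adjusted p = 0.377), and 0.02 for the inhibitors. *Cxcl2* passed in 4 of 21 alternative settings: with DESeq2 (adjusted p = 0.00815), with no filter (adjusted p = 0.000775), without GABA replicate 1 (adjusted p = 0.0217) and without *muMt*-/- replicate 5 (adjusted p = 0.0438). *Il1b* passed in 2, with DESeq2 (adjusted p = 0.0367) and with no filter (adjusted p = 0.0493), and *Maf* in 1, with DESeq2 (adjusted p = 0.0247). These lists were measured against the same *muMt*-/- libraries in which several of their genes had been high.

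Set against WT TAMs, those of GABA-treated *muMt*-/- mice passed the test in no member. The edgeR test called 0 of 8 members and 7 of 9469 genes, or 0.0739% (665 at unadjusted p < 0.05; DESeq2 called 14), and no member had an exact permutation p < 0.05, a level that 7.85% of genes reached. The largest log2 fold changes were 0.30 for *Il10ra* (standard error 0.21, edgeR adjusted p = 0.843), 0.26 for *Stat3* and −0.20 for *Jak1*. *Socs3* was at 0.19 and *Sbno2* at −0.03, and these 2 targets had means of 48.5 ± 7.73 and 17.1 ± 6.12 with GABA beside 42.6 ± 5.76 and 17.1 ± 4.55 in WT. In both, the groups overlapped. The median of the 8 was 0.11 beside 0.02 for all genes, and no gene of the surrounding lists passed.

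**Figure D2:**
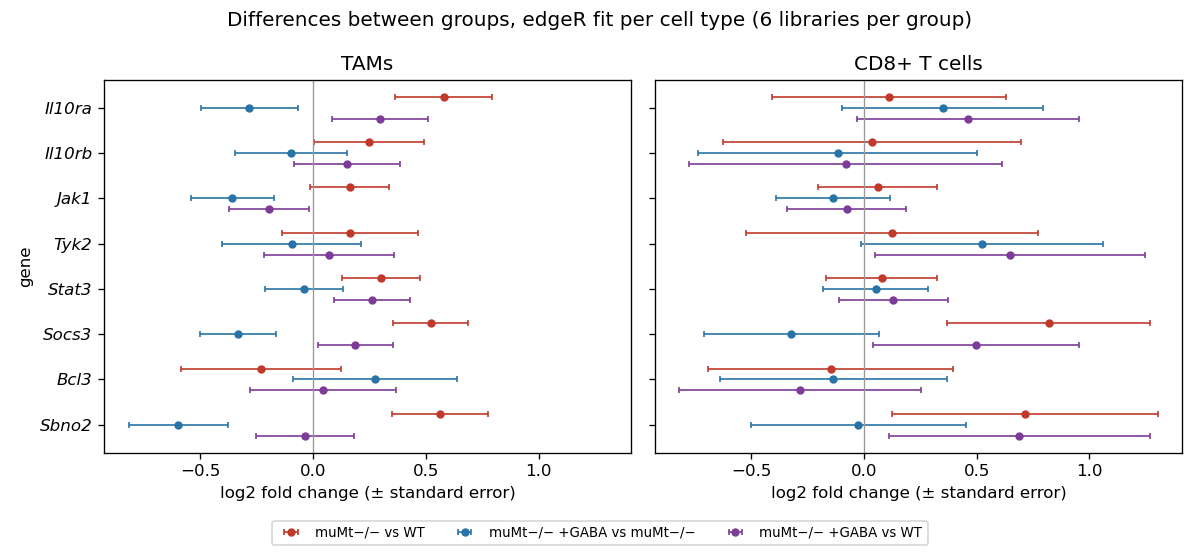
Log2 fold changes of the 8 tested pathway genes in TAMs (left) and CD8+ T cells (right), from 1 edgeR fit for each cell type with 6 libraries per group. Error bars are 1 standard error. The 3 comparisons within a cell type share their groups and are not independent; no value passed an adjusted p of 0.05.

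In CD8+ T cells the pathway genes were measured at lower depth, and no group difference could be called. The edgeR test called 0 of 8 members without B cells, with GABA against *muMt*-/- and with GABA against WT, where 0, 0 and 0 of 6663 genes passed, or 0%. Unadjusted p < 0.05 held for 411, 247 and 459 genes in this order, and DESeq2 called 0, 0 and 1. No member had an exact permutation p < 0.05, beside 7.05%, 4.41% and 6.66% of all genes. The member medians of the log2 fold change were 0.10, −0.07 and 0.30, beside 0.15, 0.03 and 0.21 for all genes.

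The receptor genes were sparse in these cells. *Il10ra* ranged from 0 to 11.1 normalized molecules in WT CD8+ T cells (median 2.27), from 2.24 to 6.07 in *muMt*-/- (median 2.48) and from 1.24 to 6.36 with GABA (median 4.17). WT replicate 3 alone held the 11.1, and the other WT libraries did not pass 3.67. *Il10rb* was at 0 to 9.62 in WT (median 1.03), 0.762 to 4.05 in *muMt*-/- (median 1.81) and 0.620 to 3.66 with GABA (median 2.14). The WT libraries enclosed those of both other groups for each chain. Log2 fold changes of *Il10ra* were 0.11 without B cells, 0.35 with GABA against *muMt*-/- and 0.46 with GABA against WT, with standard errors of 0.52, 0.44 and 0.49.

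*Jak1* and *Stat3* were the members measured best in CD8+ T cells. *Jak1* stood at 14.9 to 36.1 in WT (median 23.3), 15.5 to 31.6 in *muMt*-/- (median 22.9) and 13.6 to 27.3 with GABA (median 19.6). *Stat3* stood at 16.8 to 46.4, 24.5 to 33.6 and 19.7 to 42.2 in the same order (medians 26.8, 28.4 and 27.0). For both genes the 3 groups overlapped widely, and no log2 fold change was larger than 0.14 in size. Over the 18 CD8+ libraries their Pearson correlations with the log2 macrophage marker sum were −0.56 for *Jak1* and −0.35 for *Stat3*. Without the 2 farthest libraries these were −0.51 and −0.22, and the part of macrophage RNA in these values was not tested. *Tyk2* had medians of 1.62, 1.30 and 2.35 normalized molecules, with log2 fold changes of 0.52 for GABA against *muMt*-/- and 0.65 against WT (standard errors 0.53 and 0.60).

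*Socs3* in CD8+ T cells depended on 1 library. It ranged from 3.10 to 10.999 in WT (median 4.84), from 3.33 to 29.3 in *muMt*-/- (median 5.85) and from 3.90 to 13.98 with GABA (median 5.99). Replicate 1 of the *muMt*-/- group held the 29.3, and the next highest value of that group was 8.996. Without B cells its log2 fold change was 0.82 with a standard error of 0.45 (edgeR adjusted p = 0.850), and 0.19 without this library. For GABA against *muMt*-/- it was −0.32, and 0.31 without it. The same library had the highest macrophage marker sum of all CD8+ libraries, 7258 CPM or 36.4% of the WT TAM mean, and a T cell marker sum of 1810, or 37.5% of the WT CD8+ mean. The second highest *Socs3* value, 13.98 in GABA replicate 1, came with a macrophage marker sum of 3877 CPM. Other libraries did not follow: GABA replicate 3, with a higher sum of 3980 CPM, had 4.96 normalized molecules, and WT replicate 1, with a sum of only 370 CPM, had 10.999. Over the 18 CD8+ libraries the Pearson correlation of *Socs3* with the log2 marker sum was 0.44, and 0.06 without the 2 farthest libraries. The part of macrophage RNA in these *Socs3* counts was not tested.

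**Figure D3:**
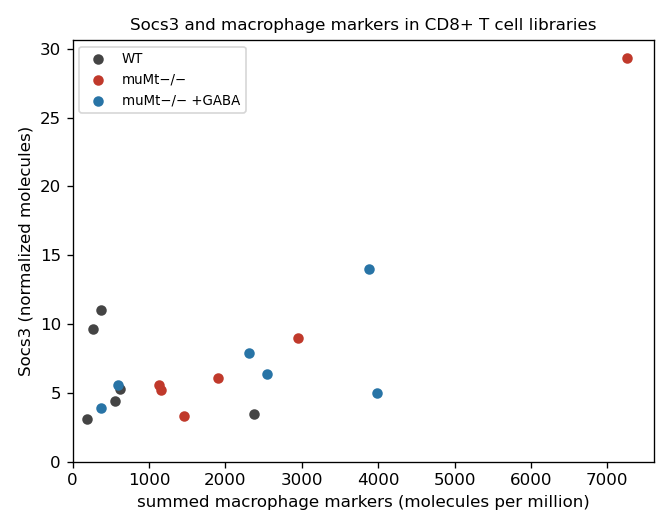
Normalized number of *Socs3* molecules against the summed CPM of 15 macrophage marker genes in the 18 CD8+ T cell libraries. Each dot is 1 library, in grey for WT, red for *muMt*-/- and blue for *muMt*-/- with a GABA pellet. The red dot at the upper right is *muMt*-/- replicate 1.

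*Sbno2* was at 0 in 3 WT CD8+ libraries and at 2.02 to 3.81 in *muMt*-/- libraries (median 2.89), with a WT median of 1.03 and a highest WT value of 3.43. All 6 *muMt*-/- libraries lay above the WT median, and the groups overlapped. The log2 fold change was 0.71 with a standard error of 0.59 (edgeR adjusted p = 0.953; exact permutation p = 0.0823). With GABA it was at 1.24 to 5.72 (median 2.35), and the log2 fold change against WT, 0.69, turned to −0.20 with depth as a covariate. Over the 18 CD8+ libraries *Sbno2* went with the macrophage marker sum on the log2 scale at r = 0.49, and at 0.61 without the 2 farthest libraries, and the part of macrophage RNA in these values was not tested. *Bcl3* had medians of 3.35, 3.94 and 2.93 in WT, *muMt*-/- and GABA-treated mice, with overlapping groups.

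Surrounding lists in CD8+ T cells gave 0 calls in every comparison. IL-10-induced genes had median log2 fold changes of 0.77 without B cells, −0.22 for GABA against *muMt*-/- and 0.69 against WT, and IL-10-repressed genes of 1.78, −0.13 and 0.95. The genes with the smallest p without B cells were *Il4ra* (1.75, edgeR adjusted p = 0.336), *Il1rn*, the IL-1 receptor antagonist (2.53, adjusted p = 0.360), and the class II genes *H2-Ab1* (2.02, adjusted p = 0.360) and *H2-Aa* (2.07, adjusted p = 0.360). All 4 are known in macrophages and were higher in WT TAMs than in WT CD8+ T cells. The macrophage marker sums given above moved with the same groups, and their part in these values was not tested.

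TAMs and CD8+ T cells of WT mice differed in 5 of the 8 members: *Il10ra*, *Socs3* and *Sbno2* were higher in TAMs, and *Jak1* and *Stat3* were higher in CD8+ T cells. In 1 edgeR fit of all 36 libraries, 1928 of 8477 genes passed, or 22.7%, with 1420 higher in TAMs (16.8%) and 508 lower (5.99%). The median log2 fold change was 1.10 for the members and 0.36 for all genes. Because the cell types differ in so many genes, the zero of this scale depends on the normalization. With DESeq2 size factors the median of all genes was 0.20.

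*Il10ra* was at 112 ± 21.6 CPM (mean ± SD) in WT TAMs and 62.4 ± 69.2 in WT CD8+ T cells, at a log2 fold change of 1.36 with a standard error of 0.39 (edgeR adjusted p = 0.00674). In WT mice no TAM library was above all CD8+ libraries, because of CD8+ replicate 3, while in *muMt*-/- and in GABA-treated mice all 6 were. *Il10rb* averaged 68.0 and 48.2 CPM (log2 fold change 1.13, standard error 0.49, edgeR adjusted p = 0.0898). It passed without CD8+ WT replicate 2 (1.70, adjusted p = 0.0181) and without replicate 5 (1.54, adjusted p = 0.0422). *Tyk2* averaged 47.0 in TAMs and 28.8 in CD8+ T cells (log2 fold change 1.08, standard error 0.50, edgeR adjusted p = 0.122).

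*Jak1* averaged 173 CPM in WT TAMs and 421 in WT CD8+ T cells, at a log2 fold change of −0.88 with a standard error of 0.23 (edgeR adjusted p = 0.00226). In all 3 groups every TAM library lay below every CD8+ library. *Stat3* averaged 234 and 503 CPM (log2 fold change −0.79, standard error 0.22, edgeR adjusted p = 0.00446), with 5 of 6 WT, 6 of 6 *muMt*-/- and 5 of 6 GABA-treated TAM libraries below all CD8+ libraries. Thus a kinase and the transcription factor of the pathway made up a larger share of the RNA of T cells, and the ligand-binding receptor chain a larger share of that of macrophages.

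Of the targets, *Socs3* and *Sbno2* were called higher in WT TAMs, as was *Il10ra*, and *Bcl3* was not called. *Socs3* averaged 228 CPM in WT TAMs and 107 in WT CD8+ T cells (log2 fold change 1.56, standard error 0.35, edgeR adjusted p = 0.000484). TAM libraries were above all CD8+ libraries in 5 of 6 cases in WT and GABA-treated mice and in 0 of 6 in *muMt*-/- mice, where CD8+ replicate 1 was higher than every TAM library, so the cell types overlapped in all 3 groups. *Sbno2* averaged 91.2 and 24.5 CPM (log2 fold change 1.72, standard error 0.44, edgeR adjusted p = 0.00209), and TAMs were above all CD8+ libraries in 6, 6 and 1 of 6 libraries of WT, *muMt*-/- and GABA-treated mice. *Bcl3* averaged 37.1 and 64.3 CPM, without a call (log2 fold change −0.52, standard error 0.46, edgeR adjusted p = 0.477). All 5 calls held in each of the 20 alternative settings.

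Genes of the surrounding lists were also compared between the cell types, beside 16.8% of all genes higher in TAMs and 5.99% lower. Of 14 IL-10-induced genes 8 were higher in TAMs, among them the Fc receptor *Fcgr1* (log2 fold change 5.12), *Il1rn* (4.24), the haem-degrading enzyme *Hmox1* (2.94) and *Il4ra* (2.61), and 3 were lower, *Ddit4* (−1.65), *Gadd45b* (−1.59) and *Arid5a* (−1.16). Of 15 repressed genes 10 were higher, led by the class II genes *H2-Aa* (4.13), *H2-Ab1* (3.92) and *H2-Eb1* (3.73) and by *Cxcl2* (3.16), and 3 lower, the chemokines *Ccl3* (−3.63), *Ccl4* (−3.46) and *Ccl5* (−2.18). Among the relatives, *Stat2* (1.78), which carries interferon signals, was higher in TAMs, and *Stat4* (−5.10), which carries IL-12 signals, and *Stat5a* (−1.44) were lower. Of 14 inhibitors, *Ptpn6* (1.20) and *Ptpn1* (1.14) were higher and *Cish* (−3.10) was lower. Of 11 regulators of *Il10*, 2 were higher in TAMs, *Maf* (2.67) and *Prdm1* (1.52), and 6 were lower, with a median of −2.38. All calls were at edgeR adjusted p < 0.05. *Hmox1* kept its call in 7 of 20 settings, *Stat5a* in 13 of 18, *Prdm1* in 10 of 19 and *Arid5a* in 19 of 20. Some genes of these lists were high enough to be tested in only 1 of the cell types, which favours 1 direction, so those named are given as levels. The counts above and the median of −2.38 include such genes, and nothing is read from them. Examples are *Cxcl1* of the repressed genes (25.03 CPM in WT TAMs and 2.17 in WT CD8+ T cells) and 4 of the 6 lower regulators. *Csf3r* and *Lifr* averaged 26.4 and 23.8 CPM in WT TAMs and were at 0 in all WT CD8+ libraries, and *Il27ra* and *Tbx21* averaged 17.1 and 61.5 CPM in WT CD8+ T cells and were at 0 in all WT TAM libraries. *Gata3*, *Irf4* and *Eomes* averaged 198, 103 and 49.2 CPM in WT CD8+ T cells and 2.08, 3.35 and 1.37 in WT TAMs. *Bhlhe40*, a listed regulator that the naming rule did not take in this comparison and that is given here after its values were seen, was high enough in both and averaged 37.7 CPM in WT TAMs and 255 in WT CD8+ T cells.

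Whether the groups differed by another amount in TAMs than in CD8+ T cells was tested as an interaction. For *muMt*-/- against WT, 0 of 8 members and 1 of 8477 genes passed, or 0.0118% (853 at unadjusted p < 0.05 in edgeR; DESeq2 called 9). *Il10ra* gave an interaction of 0.43 with a standard error of 0.57 (edgeR adjusted p = 0.861) and *Socs3* of −0.35 with 0.47 (adjusted p = 0.869). Over 32 alternative settings *Il10ra* ran from −0.04 to 0.66 and *Socs3* from −0.55 to 0.30. Each kept its direction in 31 of the 32. The member median was 0.04 beside −0.30 for all genes. For GABA against *muMt*-/-, 0 of 8 members and 0 of 8477 genes passed, or 0% (384 at unadjusted p < 0.05 in edgeR; DESeq2 called 0), and the largest values were −0.66 for *Il10ra* and for *Tyk2* and −0.58 for *Sbno2* (standard errors 0.48, 0.60 and 0.51). The labels do not say whether TAM and CD8+ libraries of the same number came from 1 mouse, and these tests and those between the cell types took them as independent. With a replicate block the 1 gene became 12. Differences that were larger in 1 cell type were thus not told from equal ones at this depth.

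Over the 18 TAM libraries, the 8 measured members varied together only loosely. The Pearson correlation of log2 normalized numbers was above 0 in 22 of 28 pairs, with a median of 0.20 and a range of −0.27 to 0.66. The highest was that of *Il10ra* with *Socs3* (0.66), followed among receptor pairs by *Il10ra* with *Il10rb* (0.54). The libraries share their groups and differ in depth, so these values are a description. Ranked among 5310 genes, genes most like *Il10ra* included *Fam102b* (0.81), *Rab5b* (0.79), *Nipa2* (0.79) and *Fyb* (0.78). Those most like *Socs3* were *Rprd2* (0.87), *Pik3c2a* (0.81), *Skil* (0.76), *Lrrfip1* (0.76) and *Gm18853* (0.74). For *Il10* the same rule gave *Bmpr2* (0.69), *Fkbp5* (0.68), *Suclg1* (0.66), *Dnase2a* (0.63) and *Uri1* (0.62), but with 13 of 18 libraries at 0 these values rest on 6 molecules.

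Counting error was of the same order as many of these spreads. For *Socs3* in WT TAMs, the standard deviation between libraries was 13.5% of the mean, where counting alone gives 13.4%. In *muMt*-/- TAMs the values were 21.2% beside 21.7% for *Sbno2*, 37.8% beside 19.7% for *Il10ra* and 9.86% beside 17.9% for *Jak1*. A standard deviation of 6 libraries is itself uncertain, so these are descriptions. Over all genes, the biological coefficient of variation was 0.195 in the TAM fit and 0.294 in the CD8+ fit.

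The members are spread over 7 chromosomes of the mouse genome (GRCm38.p6, RefSeq): *Il10* at chr1:131019845-131024970, *Jak1* at chr4:101151974-101265282, *Bcl3* at chr7:19808462-19822824, *Tyk2* at chr9:21104068-21131393, *Il10ra* at chr9:45253837-45269149, *Sbno2* at chr10:80056992-80106108, *Stat3* at chr11:100886806-100939594, *Socs3* at chr11:117966079-117970336 and *Il10rb* at chr16:91406157-91425834. Promoter sequences from RefSeq matched 6 of the 9 members by symbol, in 8 windows, 3 of them of *Sbno2*, which has several start sites. The 250 bases before each start were searched for TTCNNNGAA, the palindrome that STAT proteins bind, which reads the same on both strands. It was found in 3 of the 8 windows, of *Socs3* and *Sbno2*, and in 2306 of 32851 mouse promoters (7.02%). *Jak1*, *Bcl3*, *Tyk2* and *Stat3* did not hold it in these windows. Matches are shown for *Socs3* and *Sbno2* because only these 2 of the 6 members held one. Each line runs 5′ to 3′ on the minus strand of GRCm38.p6 with the motif in capitals. For *Socs3*, at chr11:117969502-117969530, the motif begins 154 bases before the start used for its window. For *Sbno2*, at chr10:80102710-80102738 and chr10:80101193-80101221, it begins 26 and 24 bases before the start used for each window. These 3 starts and matches lie inside the gene coordinates given above, not before their ends. A match is a stretch of letters and not a measured binding site.
Socs3: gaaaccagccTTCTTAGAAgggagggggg
Sbno2 start 1: gccgcgccccTTCGCAGAAgcggaagtgc
Sbno2 start 2: ccggctctgcTTCCCGGAAtgcctgtgag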

How the data were processed

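The authors deposited one table of molecule counts per gene and library, made with STAR on the mm10 genome from barcoded reads. It held whole numbers, and 9188 of its 24781 genes had no molecule. All 36 libraries were used, and no 2 were identical. Counts were fitted in R 4.3.3 with edgeR 4.0.16 (TMM, quasi-likelihood F-test), 1 fit for each cell type and 1 for both, over genes with a mean normalized number above 1. P values were adjusted by Benjamini-Hochberg over all tested genes at 0.05. Standard errors are the size of the log2 fold change divided by the square root of F. DESeq2 1.42.0 gave the normalized numbers. Exact permutation tests (two-sided, 924 arrangements of 6 against 6, smallest p 0.0022, 54 tests of members, unadjusted) compared mean log2(normalized number + 1), with matplotlib 3.10.9, scipy 1.17.1, pandas 2.3.3 and numpy 2.4.6 under Python 3.11.15.

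Members and lists were chosen with earlier results of these data known. Named were the 9 members in every comparison, and from each list the genes that passed, at most 4 per direction by size, or the 2 with the smallest p. In CD8+ T cells and for most marker lists only some of these are named. For *Il10*, *Il10ra* and *Socs3* the 5 genes with the highest correlation were taken. Some genes that these rules take are not reported here. Spike-in counts and the T cell genes *Trbc1* and *Trbc2* were not analysed here. Counts are shares of each library, and how completely barcodes or 100 cells sampled the RNA was not tested.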

Additional observations from a re-analysis of the deposited data

Results flagged for a closer look

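A library was marked where its gap to the nearest of the 6 of its group was large against the range of that group, which chance alone does in about 1 in 20 groups. Of 54 groups, 10 were marked. That rate does not hold for groups near 0, where 1 molecule is enough to be marked, and 4 of the 10 were of *Il10*, so the count is not read as an excess. In TAMs these were *Socs3* in WT replicate 6 (31.2, the lowest, with the others at 42.6 to 46.6, in a library whose tumour and stroma markers summed to 5290 CPM), *Sbno2* in WT replicate 2 (25.8, the others at 12.8 to 17.4) and *Sbno2* in GABA replicate 1 (29.2, the others at 12.5 to 16.3). *Il10* was marked in *muMt*-/- TAM replicate 4 (1.39, the only molecule of its group) and in GABA TAM replicate 3 (2.03, the others at 0 to 0.721). In CD8+ T cells, *Il10* was marked in WT replicate 6 (0.751, the others at 0) and in *muMt*-/- replicate 6 (4.996, the others at 0 to 1.64). *Il10ra* was marked in WT CD8+ replicate 3 (11.1, the others at 0 to 3.67). *Tyk2* was marked in *muMt*-/- CD8+ replicate 6 (3.33, the others at 0.818 to 1.52). *Socs3* was marked in *muMt*-/- CD8+ replicate 1 (29.3, the others at 3.33 to 8.996). The interaction tests called no member, and differences between the cell types smaller than their errors would not have been found.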

How the results depend on the processing

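Each result was recomputed under other settings, and the cause of a change was not tested. Of 1616 refits of members, 1462 kept their direction and side of the threshold and 5 passed where the value given above did not (*Socs3* in TAMs 3 times, *Il10rb* between cell types 2 times). Another 148, in 34 results never called and none larger than 0.43 in size, changed sign within their standard error, 109 of them with a library left out. *Sbno2* in CD8+ T cells with GABA against WT turned to −0.20 with depth as a covariate. Depth as a covariate was not run in the fit of both cell types.

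Genes that passed in TAMs without B cells (194) numbered 295 with filterByExpr, 343 with no filter, 324 with only the compared groups and 11 with depth as a covariate, and 69 to 230 with a library left out. With GABA against *muMt*-/- (2) they were 60 with DESeq2, 51 with no filter, 4 with the replicate block, 5 with depth and 4 with the robust fit, and 2 to 35 with a library left out. With GABA against WT (7) they were 14 with DESeq2, 2 with filterByExpr, 63 with no filter, 2 with means above 5 and 3 with only the compared groups, and 2 to 9 with a library left out.

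In CD8+ T cells, the 0 genes without B cells became 72 with no filter and 1 with only the compared groups, and 0 to 13 with a library left out (13 without WT replicate 5). The 0 genes with GABA against *muMt*-/- became 11 with no filter, 1 with only the compared groups, 2 with the replicate block and 6 with depth, and 0 to 1 with a library left out. The 0 genes with GABA against WT became 1 with DESeq2 size factors, 1 with DESeq2, 64 with no filter, 1 with only the compared groups and 1 with the replicate block, and 0 to 1 with a library left out.

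Between WT TAMs and CD8+ T cells the 1928 genes became 1166 with filterByExpr and 1233 with means above 5, and 1598 to 1885 with a library left out. The 1 gene of the interaction without B cells became 0 with DESeq2 size factors, 9 with DESeq2, 0 with filterByExpr, 79 with no filter, 0 with means above 5, 14 with only the compared groups, 12 with the replicate block and 0 with the robust fit, and 0 to 9 with a library left out. The 0 genes of the interaction with GABA became 17 with no filter and 1 with the replicate block, and 0 to 2 with a library left out. Counts of exact permutation tests stayed within 1.5 times.

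Fitted with the replicate block, 201 genes passed in TAMs without B cells and 1850 between the cell types. Libraries of the same number were not treated as pairs, since the labels do not say whether they came from 1 mouse. Their correlations were −0.35 to 0.20 over 18 pairs of TAM libraries, −0.41 to 0.43 in CD8+ T cells and −0.06 to 0.41 between the cell types. Medians in this order were 0.02, −0.03 and 0.05, beside −0.02, 0.01 and −0.01 for libraries of other numbers.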
